A study of Mus musculus with 22 samples.

Results

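Male germ cells of the fetal testis were compared at the embryonic days E14.5 and E12.5 in 4 RNA-seq libraries, 2 at each stage, out of the 22 samples of the series. The members were taken by their labels as the male Tet1-WT libraries of these stages, and no measured value chose them. All 4 came from the embryos of a cross of Tet1-het with Tet1-het mice that carry GOF18∆PE-EGFP, a reporter of Pou5f1 that makes germ cells fluoresce. Male E12.5 Tet1-WT and male E14.5 Tet1-WT embryos are those without the Tet1 knockout allele, and no animal of the compared groups was treated. Each library pooled RNA of sorted primordial germ cells (PGCs) from 2 to 6 embryos of a matching genotype, stage and sex, so a library is a pool and not an animal, and p-values measure the spread between such pools. The sorting gate is not given in the sources used here. Female Tet1-WT libraries and male Tet1-KO libraries of the same stages and cross, 2 in each group, stand beside them where a difference was tested. Tet1 encodes a dioxygenase that oxidises 5-methylcytosine. In the males, Tet1 was at 178 and 309 CPM (read counts scaled for library size) at E12.5 and at 218 and 155 at E14.5. In the libraries labelled male Tet1-KO it was at 79.3 and 84.4 and then at 99.5 and 79.9, below every male Tet1-WT library.

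Germ cells that enter the fetal testis stop dividing and stay out of the cell cycle until after birth, while those of the ovary enter meiosis. Signals of the somatic cells, among them Nodal and activin, FGF, retinoic acid and BMP, act on this choice. In the testis the cells then take up Nanos2 and Dnmt3l, lay down DNA methylation anew and arm the piRNA pathway, in which small RNAs guide PIWI proteins to silence transposons. Arrest is part of the usual description of E14.5 testicular germ cells, but cell division was not measured here: the libraries give RNA levels.

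Promoters of 6 genes on which the results turn are shown first, as the 250 bases before the annotated transcription start, read 5′ to 3′ on the gene's strand from RefSeq (GRCm38.p6). The deposited counts were made on another build, mm9, so these coordinates belong to the RefSeq table alone. Nanos2 (chr7:18987274-18987523, plus strand), the gene that marks male fate, holds 0 CpG dinucleotides and has its CCAAT boxes in capitals. Taf7l (chrX:134476491-134476740, minus strand) and Asz1 (chr6:18109062-18109311, minus strand) belong to a list of germline genes known to be silenced by promoter methylation, and have their CpG in capitals. Cdc6 (chr11:98907901-98908150, plus strand) and Rfc3 (chr5:151651209-151651458, minus strand) are replication genes with an 8-base match to an E2F site in capitals. Top2a (chr11:99024190-99024439, minus strand) is a division gene with its CCAAT boxes in capitals.
Nanos2: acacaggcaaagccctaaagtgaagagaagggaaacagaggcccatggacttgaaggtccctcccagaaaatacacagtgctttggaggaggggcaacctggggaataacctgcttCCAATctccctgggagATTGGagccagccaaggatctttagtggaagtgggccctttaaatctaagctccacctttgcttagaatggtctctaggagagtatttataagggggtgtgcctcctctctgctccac
Taf7l: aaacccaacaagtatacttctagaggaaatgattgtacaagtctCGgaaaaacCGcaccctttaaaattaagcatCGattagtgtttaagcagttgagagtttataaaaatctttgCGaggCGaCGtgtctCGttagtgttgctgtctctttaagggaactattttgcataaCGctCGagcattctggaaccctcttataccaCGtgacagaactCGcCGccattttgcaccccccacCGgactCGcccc
Asz1: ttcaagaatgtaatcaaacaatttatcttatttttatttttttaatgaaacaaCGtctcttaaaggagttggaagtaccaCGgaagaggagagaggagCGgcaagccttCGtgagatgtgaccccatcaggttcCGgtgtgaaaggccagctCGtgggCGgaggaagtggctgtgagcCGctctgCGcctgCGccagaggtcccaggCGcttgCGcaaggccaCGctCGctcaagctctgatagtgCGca
Cdc6: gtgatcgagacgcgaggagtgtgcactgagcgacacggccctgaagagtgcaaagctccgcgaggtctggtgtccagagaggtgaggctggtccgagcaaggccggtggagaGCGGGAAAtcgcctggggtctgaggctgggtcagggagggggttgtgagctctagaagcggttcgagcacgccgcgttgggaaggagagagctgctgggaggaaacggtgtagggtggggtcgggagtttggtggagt
Rfc3: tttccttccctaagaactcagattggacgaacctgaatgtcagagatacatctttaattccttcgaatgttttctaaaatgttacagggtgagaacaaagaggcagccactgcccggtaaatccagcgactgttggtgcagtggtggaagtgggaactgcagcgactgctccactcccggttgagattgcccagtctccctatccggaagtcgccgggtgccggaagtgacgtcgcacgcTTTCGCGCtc
Top2a: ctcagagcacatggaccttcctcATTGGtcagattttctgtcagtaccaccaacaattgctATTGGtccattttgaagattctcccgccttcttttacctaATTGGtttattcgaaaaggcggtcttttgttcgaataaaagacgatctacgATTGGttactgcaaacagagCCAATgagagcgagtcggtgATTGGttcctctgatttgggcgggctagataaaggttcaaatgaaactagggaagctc
In the capitals, Taf7l holds 14 CpG and Asz1 holds 15, Top2a holds 6 CCAAT boxes on either strand, and Nanos2 holds 2.

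The E2F search took TTTCCCGC, TTTGGCGC, TTTCGCGC and TTTGCCGC on both strands, each of which contains a CpG, over 300 bases that run from 250 before to 50 after the start. Of 17567 genes tested, 12250 had a promoter in the table, and 3.84% of these held an E2F match. The share was 32.6% (15 of 46) in a DNA replication list. In a piRNA pathway list it was 0% (0 of 19), too few promoters to be told apart from 3.84%. Among genes called higher at E14.5 the E2F share was 4.59%, and among genes called lower 4.73%. The CCAAT box was in 38.8% of all promoters and in 77.5% (31 of 40) of a mitosis list. The median promoter held 19 CpG over all genes and also over the genes called in each direction, and 10 over a list of male germ cell differentiation genes. These are matches of letters and not measured sites.

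The libraries held 15298200 and 15261276 counts at E12.5 and 17251851 and 25899505 at E14.5, within the 9616436 to 25899505 of the 20 libraries of the cross. Replicates correlated at 0.979 (E12.5) and 0.971 (E14.5) on the log2 CPM scale across genes, which are not independent replicates. Germ cell markers dominated in all 4, and their summed level over 12 genes was 6136 and 7335 CPM at E12.5 and 12937 and 13466 at E14.5. Of the 12, 6 were called higher at E14.5 and 2, Tfap2c and Kit, were called lower. The sum over markers of gonadal and mesonephric mesenchyme, 15 genes, fell from 1868 and 1233 CPM to 34.9 and 27.7. Of these 13 fell, and 6 and 3 of the 15 were at 0 in the E14.5 libraries against none at E12.5. In the male Tet1-KO libraries the same sum was 265 and 172 CPM at E12.5 and 29.0 and 33.3 at E14.5, and in the female Tet1-WT libraries 808 and 1161 and then 39.0 and 34.9. Sertoli cell markers summed to 126 and 86.9 CPM and then 41.6 and 48.3, epithelial markers to 109 and 60.5 and then 19.8 and 12.1, and those of leukocytes to 10.3 and 3.70 and then 1.84 and 0.679. Leydig cell markers were at 61.9 and 64.0 CPM and then 76.1 and 80.5, and endothelial markers at 33.3 and 39.7 and then 17.9 and 28.8. Erythroid markers differed within each stage, at 76.0 and 8.21 CPM and then 9.45 and 66.0. Every comparison of stages below stands beside this mesenchyme difference. Fewer cells of a type and less RNA per cell cannot be told apart in such libraries, and stage and library preparation cannot be told apart either.

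**Figure D1:**
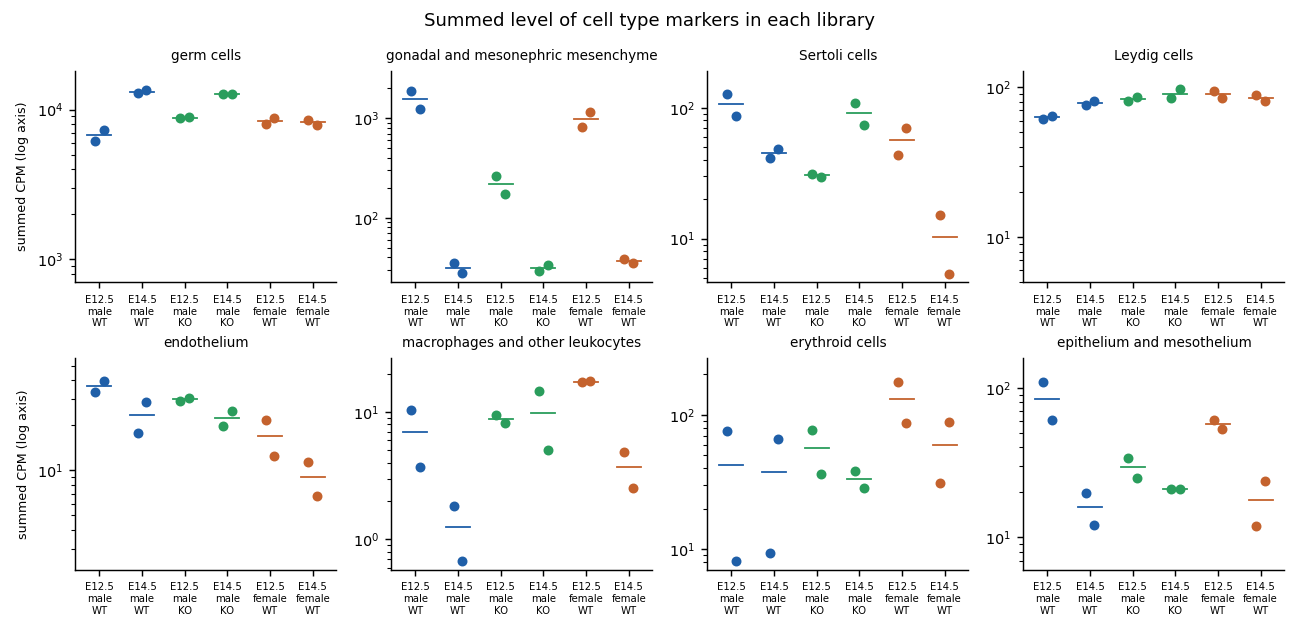
Summed CPM (log axis) of the markers of 8 cell types in each library of 6 groups, with points for the 2 libraries and a line for their mean. The male Tet1-WT mesenchyme sum lies at 1868 and 1233 CPM at E12.5 and at 34.9 and 27.7 at E14.5, while the germ cell sum is higher in both E14.5 libraries than in both E12.5 libraries.

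Between E12.5 and E14.5, 865 genes rose (4.92% of those tested) and 1362 fell (7.75%), at an adjusted p under 0.05. The test was edgeR's quasi-likelihood F test with Benjamini-Hochberg adjustment over all 17567 genes, and it gave every adjusted p below. A log2 difference is E14.5 minus E12.5. The called rises were smaller, with a median of 1.11 on the log2 scale, than the called falls, with a median of -2.43. The libraries of the stages did not overlap in any called gene, nor in 58.6% of all genes tested. In male Tet1-KO libraries 10.4% of all genes were called in either direction. Of the 865 rises, 332 (38.4%) were called higher there and 0 lower, against 5.5% of all genes called higher. They made up 34.4% of the rises called in those libraries, against the 4.92% of all genes tested that rose in Tet1-WT. Of the 1362 falls, 379 (27.8%) were called lower in male Tet1-KO libraries, where 4.87% of all genes were, and 8 were called higher. These falls were 44.3% of the falls called there, against the 7.75% of all genes tested that fell in Tet1-WT. At E12.5, 855 of the falling genes (62.8%) were lower in both male Tet1-KO libraries than in both Tet1-WT ones, against 26.6% of all genes tested. Of the 865 rising genes 422 (48.8%) were higher in both of those Tet1-KO libraries, against 26.7% of all genes tested. The genes were called on these same E12.5 Tet1-WT libraries, so both shares are set in part by that choice.

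With the summed mesenchyme level added to the model, 0 genes were called in either direction by edgeR, 1330 had an unadjusted p under 0.05, and the median log2 difference over all genes was -0.45. That level was lower at E14.5 in males of both genotypes and in females, so stage and mesenchyme level cannot be told apart by this model. Without replicate 1 of E12.5 the counts were 191 and 574, without its replicate 2 they were 433 and 858, and without replicate 2 of E14.5 they were 203 and 652. Without any 1 of the 4 libraries, 145 of the rises and 424 of the falls were still called.

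**Figure D2:**
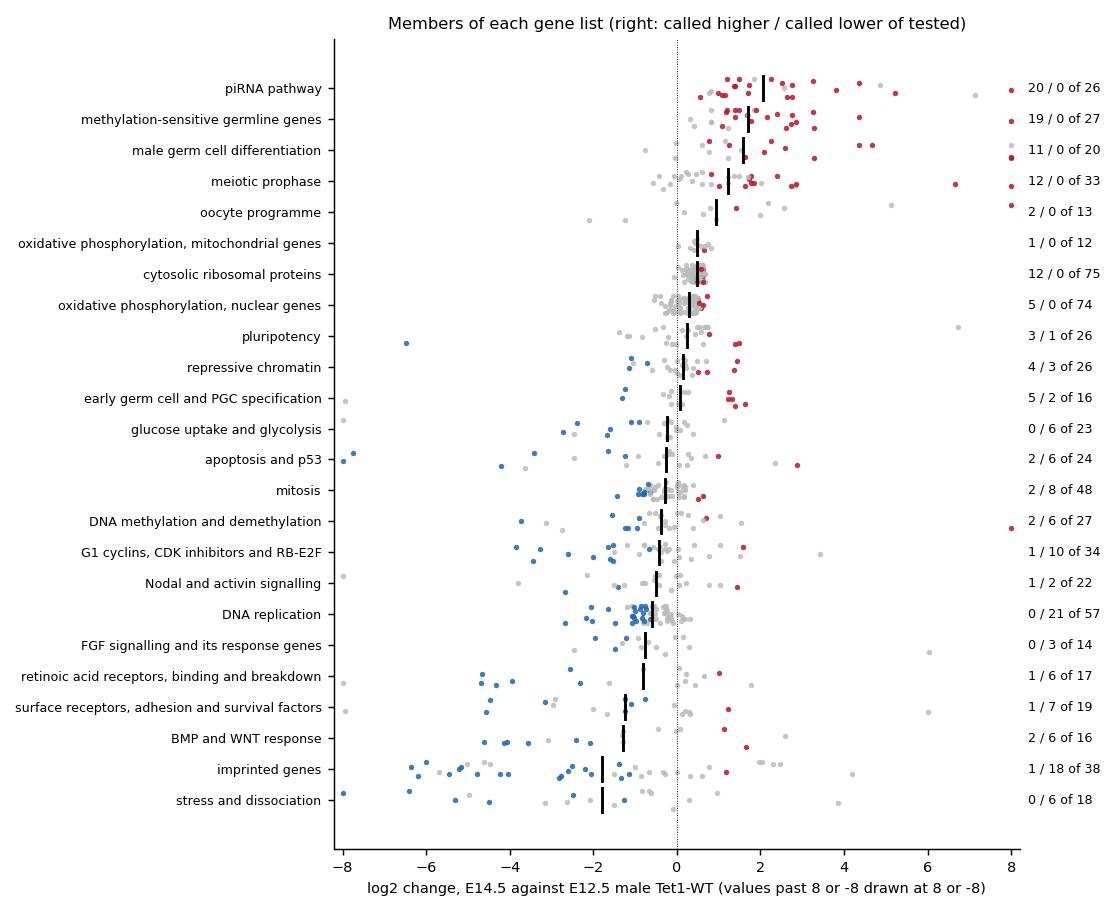
Log2 difference of E14.5 against E12.5 in male Tet1-WT libraries for each tested member of 24 gene lists, with called rises in red, called falls in blue, other members in grey and a black bar at the list's median. Of 26 piRNA pathway genes 20 were called higher and 0 lower, and of 57 DNA replication genes 0 were called higher and 21 lower.

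Among the largest changes in either direction were genes that went between 0 and clear levels. Rrad, a small GTPase gene of the RAS superfamily, was at 0 in both E12.5 libraries and at 15.2 and 39.7 CPM at E14.5, at least 149-fold higher (adjusted p 0.00773). Pkd2l1, an ion channel gene, was at 0 and then at 6.18 and 20.6 CPM, at least 72.5-fold higher (adjusted p 0.00934). Such bounds put 3 counts per library in place of 0. Rrad was no longer called without E12.5 replicate 1 (adjusted p 0.0621), nor Pkd2l1 without that library (0.0656) or E14.5 replicate 2 (0.061), and DESeq2 did not call Pkd2l1 (0.297). Agtr2, an angiotensin receptor gene, went the other way, from 158 and 103 CPM to 0 in both E14.5 libraries, at least 876-fold lower (adjusted p 0.00127). Sema3a, a secreted guidance factor gene, went from 49.5 and 34.7 CPM to 0, at least 282-fold lower (adjusted p 6.58e-06). Both were lower at E12.5 in the male Tet1-KO libraries, Agtr2 at 15.7 and 13.9 CPM and Sema3a at 17.9 and 11.1, as was the mesenchyme sum. The part of mesenchyme RNA in these falls was not tested.

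Genes of male germ cell differentiation rose: 11 of 20 tested members were called higher and 0 lower, with a median log2 difference of 1.59 against 0 over all genes tested. Nanos2, an RNA-binding protein that keeps male germ cells out of meiosis, had 0 and 0.376 CPM at E12.5 and 69.3 and 125 at E14.5. The groups lay far apart (log2 difference 8.98, SE 1.28, adjusted p 0.00151). It was at 0 and then at 43 and 63 CPM in male Tet1-KO libraries, and below 1 CPM in every female library. The test of the difference between the male and female changes did not call Nanos2 (adjusted p 0.983). Dnmt3l, the cofactor of de novo DNA methyltransferases, was at 0 in both E12.5 libraries and at 8.26 and 27 CPM at E14.5, at least 95.3-fold higher (adjusted p 0.0275). That call was lost without E12.5 replicate 1 (adjusted p 0.142), E12.5 replicate 2 (0.11) or E14.5 replicate 2 (0.112). In male Tet1-KO libraries Dnmt3l went from 0 to 4.45 and 4.43 CPM, and both libraries stood below the Tet1-WT ones of E14.5. In RefSeq the start of Dnmt3l overlaps Aire, and reads of the overlap cannot be told apart. DESeq2 called neither Nanos2 (adjusted p 0.107) nor Dnmt3l (0.275), whereas limma voom called both (0.00013 and 0.000288).

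Piwil4, the nuclear PIWI protein of fetal male germ cells, rose from 3.33 and 7.33 CPM to 60.3 and 159 (log2 difference 4.37, SE 0.66, adjusted p 0.000757). Sdc4, a heparan sulfate proteoglycan, was already abundant at 502 and 615 CPM and rose to 1963 and 2778 (log2 difference 2.08, SE 0.31, adjusted p 0.000592). Bnc2, a zinc finger protein of male germ cells, rose from 21 and 16.1 CPM to 92.7 and 129 (log2 difference 2.58, SE 0.44, adjusted p 0.00154). In the male Tet1-KO libraries 7 of the 20 members rose and 0 fell, and in the female Tet1-WT libraries 4 rose and 4 fell, where 11.3% of all genes rose and 14% fell. The count of 11 became 6 without E12.5 replicate 1 and 7 without E14.5 replicate 2.

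The piRNA pathway rose more fully than any other list of the 24 by share of members called: 20 of 26 were called higher and 0 lower, with a median log2 difference of 2.05. In all 26 the E14.5 libraries lay above both E12.5 libraries, as in 28.3% of all genes tested. Gtsf1, a PIWI partner needed for transposon cleavage, rose from 2.18 and 3.82 CPM to 62.5 and 161 (log2 difference 5.21, SE 0.74, adjusted p 0.00038). Tdrd5, a tudor domain protein of germ granules, rose from 14 and 30.6 CPM to 103 and 197 (log2 difference 2.75, SE 0.40, adjusted p 0.000467). Asz1, a mitochondrial anchor of piRNA processing whose promoter is shown above, rose from 116 and 138 CPM to 256 and 453 (log2 difference 1.48, SE 0.21, adjusted p 0.000393). Tex15, a partner of nuclear piRNA silencing, went from 31.2 and 43.1 CPM to 136 and 323 (log2 difference 2.63, SE 0.39, adjusted p 0.000496). All 4 of these calls were kept when any 1 of the 4 libraries was left out.

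Mael, a piRNA factor, rose from 38 and 47.2 CPM to 286 and 530 (log2 difference 3.26, SE 0.66, adjusted p 0.00479). Ddx4, the germ cell RNA helicase, rose from 408 and 562 CPM to 1065 and 1164 (log2 difference 1.2, SE 0.35, adjusted p 0.0331). The Mael call was lost without E12.5 replicate 1 (adjusted p 0.0599), and that of Ddx4 without each library in turn (0.228, 0.0577, 0.0619 and 0.137 for E12.5 replicates 1 and 2 and E14.5 replicates 1 and 2). Without E12.5 replicate 1 the list kept 9 calls, without E12.5 replicate 2 it kept 13, and without E14.5 replicate 2 it kept 10. In females 10 of the 26 rose and 1 fell (median 0.85). By the test of the difference 5 had a higher change in males and 2 a lower one. In the male Tet1-KO libraries 11 of the 26 rose and 0 fell, with a median of 1.70. Of the E14.5 male Tet1-WT libraries replicate 2 was the higher in 24 of the 26 members.

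Germline genes that are silenced by promoter methylation in other cells also rose in the testis, 19 of 27 with 0 lower (median 1.70), and some of them belong to the piRNA list as well. Methylation was not measured in these libraries. Taf7l, a germ cell TFIID subunit on the X chromosome whose CpG are shown above, rose from 2.36 and 1.13 CPM to 30.2 and 41.8 (log2 difference 4.36, SE 0.58, adjusted p 0.000288). The same list rose in the ovary, 20 of 27 in the female Tet1-WT libraries, and Taf7l reached 586 and 467 CPM there. The 19 testis calls became 7 without E12.5 replicate 1, 11 without E12.5 replicate 2 and 8 without E14.5 replicate 2.

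Meiotic prophase genes rose in part, although testis germ cells do not enter meiosis at this age: 12 of 33 were called higher and 0 lower (median 1.22). Sycp3, a lateral element protein of the synaptonemal complex, went from 37.9 and 38.5 CPM to 108 and 156 (log2 difference 1.78, SE 0.24, adjusted p 0.000241). Sycp1, the transverse filament protein, went from 30 and 42.7 CPM to 225 and 256 (log2 difference 2.73, SE 0.37, adjusted p 0.000249). Hormad2, a chromosome axis protein, went from 16.1 and 15.2 CPM to 54.9 and 58 (log2 difference 1.85, SE 0.21, adjusted p 5.01e-05). Rad21l, a meiotic cohesin subunit, went from 0 in both libraries to 4.81 and 4.24 CPM, at least 24.5-fold higher (adjusted p 0.00198). In each of these the male E14.5 levels stood below those of the E14.5 ovary, where Sycp3 was at 1457 and 1166 CPM and Sycp1 at 1128 and 935.

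Stra8, Rec8 and Dazl, which act at the entry into meiosis, were not called in the testis. Stra8, the retinoic acid target that opens meiosis, was at 0.726 and 0 CPM at E12.5 and at 1.66 and 1.40 at E14.5 (adjusted p 0.235), against 766 and 575 in the E14.5 ovary. Rec8, a meiotic cohesin subunit, was at 6.23 and 3.26 CPM and then 13 and 13.8 (adjusted p 0.365), against 190 and 217. Dazl, the RNA-binding protein that licenses germ cells for their sexual fate, was at 1049 and 1404 CPM and then 2296 and 1997 (adjusted p 0.211). Some alternatives did call them higher: Dazl with limma voom (0.0128), the compared libraries alone (0.031), no filter on low counts and without the E10.5 libraries, Rec8 with the latter 2 and in the 10 Tet1-WT libraries alone (0.0184), and Stra8 with no filter (3.71e-05). Of the 33 meiotic genes 27 rose in the female Tet1-WT libraries, and for 15 the change in males was below that in females by the test of the difference (5.85% of all genes tested), for 0 above it. Without E12.5 replicate 1 the 12 rises in males became 4, without E12.5 replicate 2 they became 8, and without E14.5 replicate 2 they became 7.

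**Figure D3:**
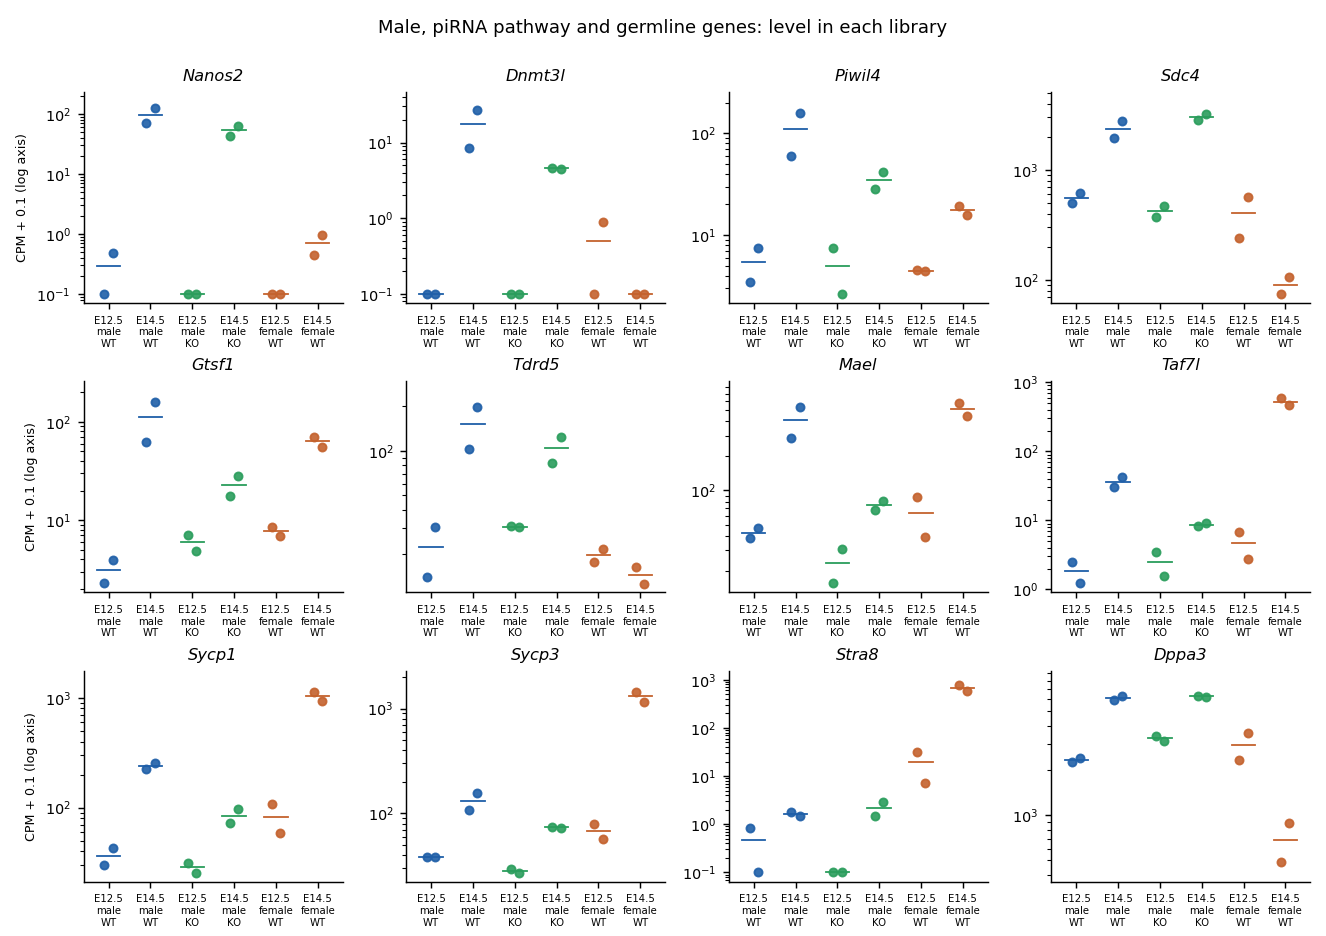
CPM plus 0.1 (log axis) of 12 germline genes in each library of 6 groups, with points for the 2 libraries and a line for their mean. Nanos2 is at 69.3 and 125 CPM in the E14.5 male Tet1-WT libraries and under 1 CPM in all female libraries, while Stra8 is at 766 and 575 CPM in the E14.5 ovary and at 1.66 and 1.40 in the testis.

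Pluripotency genes, which germ cells of this age still express, kept no common direction in the testis. Of 26, 3 rose and 1 fell (median 0.24), against 4.92% and 7.75% of all genes tested. Dppa3, a maternal factor that shields DNA from active demethylation, rose from 2263 and 2421 CPM to 5955 and 6287 (log2 difference 1.39, SE 0.26, adjusted p 0.00284). Dppa4, a chromatin factor of pluripotent cells, rose from 291 and 359 CPM to 712 and 1108 (log2 difference 1.48, SE 0.25, adjusted p 0.00144). Tbx3, a T-box factor that mesenchyme also expresses, fell from 41.9 and 30.7 CPM to 0.891 and 0 (log2 difference -6.49, SE 0.99, adjusted p 0.000809), and its level at E12.5 was 5.64 and 4.27 in male Tet1-KO libraries.

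The core factors were not called. Pou5f1 (OCT4) was at 153 and 154 CPM and then 202 and 213 (adjusted p 0.347), Sox2 at 29.9 and 32.1 and then 26.3 and 25.4 (adjusted p 0.619), and Nanog at 83.6 and 126 and then 103 and 78.8 (adjusted p 0.786). In the ovary 21 of the 26 fell and 0 rose, and 18 had a male change above the female one (6.26% of all genes tested) with 0 below. Nanog went from 144 and 106 CPM to 4.93 and 16.1 in females.

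Of 16 genes of early germ cells 5 rose and 2 fell (median 0.08), against 4.92% and 7.75% of all genes tested. Nanos3, which protects migrating germ cells from death, rose from 24.8 and 31.3 CPM to 70.5 and 103 (log2 difference 1.63, SE 0.32, adjusted p 0.00422), a call lost without E12.5 replicate 1 (0.0609). Cd9, a tetraspanin, rose from 61.7 and 72.6 CPM to 131 and 183 (log2 difference 1.23, SE 0.20, adjusted p 0.00123). Ifitm1, of an interferon-induced family whose near-identical copies can share reads, rose from 252 and 269 CPM to 670 and 628 (log2 difference 1.31, SE 0.26, adjusted p 0.00422). Tfap2c, a specification factor, was called lower at 27.8 and 32.9 and then 17 and 7.43 CPM (log2 difference -1.32, SE 0.39, adjusted p 0.0381), and Kit, the receptor of stem cell factor, at 424 and 607 and then 296 and 139 (log2 difference -1.25, SE 0.39, adjusted p 0.048). Neither was called with upper-quartile scaling. Tfap2c was not called without E12.5 replicate 1 (0.114), E12.5 replicate 2 (0.164) or E14.5 replicate 2 (0.322), nor Kit without the same libraries (0.0882, 0.258 and 0.345). In females 12 of the 16 fell, and 11 had a higher change in males than in females, with 0 lower.

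Nodal signalling genes, which the testis germ cells themselves express, were present at both stages and mostly not called. Of 22, 1 rose and 2 fell (median -0.49), against 4.92% and 7.75% of all genes tested. Nodal, the ligand, was at 19.8 and 34.2 CPM and then 36.1 and 21.1 (adjusted p 0.986). Its antagonists Lefty1 and Lefty2 were at 87.4 and 103 and at 166 and 187 CPM at E12.5, then at 213 and 110 and at 141 and 66 (adjusted p 0.528 and 0.508). Tdgf1 (Cripto), the coreceptor, was at 54.5 and 71.4 CPM and then 57.6 and 30.7 (adjusted p 0.607). All 4 stood below 12 CPM in every female library.

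Within the same pathway, Tgif1, a SMAD corepressor, rose from 63.1 and 55 CPM to 142 and 178 (log2 difference 1.44, SE 0.25, adjusted p 0.00148). Foxh1, the DNA-binding partner of SMAD2, fell from 60.9 and 80.6 CPM to 34.2 and 19.6 (log2 difference -1.40, SE 0.34, adjusted p 0.0144). Smad3, a signal transducer, fell from 31.7 and 20.7 CPM to 3.98 and 4.20 (log2 difference -2.68, SE 0.58, adjusted p 0.00695). Foxh1 was not called without E12.5 replicate 2 (0.106) or E14.5 replicate 2 (0.165), nor Smad3 without E12.5 replicate 1 (0.0636) or E14.5 replicate 2 (0.0617). Smad3 was at 6.14 and 8.27 CPM in the E12.5 male Tet1-KO libraries and at 9.16 and 10.9 at E14.5. Hesx1, a homeobox gene outside these lists and among the largest male minus female values, rose from 17.5 and 17.1 CPM to 221 and 182 (log2 difference 3.54, SE 0.49, adjusted p 0.000497), and was at 11.4 and 9.67 and then 237 and 281 in male Tet1-KO libraries.

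Of 14 genes of FGF signalling and its response 0 were called higher and 3 lower (median -0.77), against 4.92% and 7.75% of all genes tested. Spry4, a feedback inhibitor, was at 29.6 and 28 CPM and then 10.9 and 4.08 (log2 difference -1.96, SE 0.57, adjusted p 0.0344). Spred1, another inhibitor of the pathway, was at 39.3 and 37.7 CPM and then 21.3 and 11.7 (log2 difference -1.22, SE 0.33, adjusted p 0.0253). No member was called without E12.5 replicate 1, E12.5 replicate 2 or E14.5 replicate 2, where Spry4 had adjusted p 0.14, 0.0942 and 0.271 and Spred1 0.13, 0.0841 and 0.256.

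Among genes of retinoic acid reception and breakdown 6 of 17 fell and 1 rose (median -0.82), against 7.75% and 4.92% of all genes tested. The 1 rise was lost whichever of the 4 libraries was left out. Of 16 BMP and WNT response genes 6 fell and 2 rose (median -1.30), and without E12.5 replicate 1 or E14.5 replicate 2 neither rise was called. Id1, Id2 and Id3, direct BMP targets that inhibit helix-loop-helix factors, fell from 58.8 and 29.8, 339 and 127, and 514 and 342 CPM. At E14.5 they were at 3.86 and 3.64, 12.2 and 6.83, and 96.7 and 63.4 CPM (log2 differences -3.56, -4.62 and -2.42, SE 0.45, 0.44 and 0.31, adjusted p 0.000154, 9.72e-06 and 0.000154). Gata2, a zinc finger factor, fell from 44.8 and 29.3 CPM to 1.84 and 2.32 (log2 difference -4.14, SE 0.46, adjusted p 4.09e-05). These 4 calls were kept when any 1 library was left out. In females Id1 was at 135 and 39 CPM and then 186 and 178, and 7 of the 16 had a lower change in males than in females. Id2 was called lower in females too (adjusted p 0.0306), while Id1, Id3 and Gata2 were not called there (0.0613, 0.129 and 0.417). E12.5 replicate 1 held more than replicate 2 of Id1, Id2, Id3 and Gata2, and its mesenchyme sum was also the higher (1868 against 1233 CPM). The part of mesenchyme RNA in these falls was not tested.

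Replication genes fell together in the testis: 21 of 57 were called lower and 0 higher, with a median log2 difference of -0.59. Gins2, a subunit of the replicative helicase, fell from 38.2 and 29.2 CPM to 5.47 and 5.07 (log2 difference -2.68, SE 0.32, adjusted p 8.79e-05). Tk1, the thymidine kinase of S phase, fell from 84.9 and 66.8 CPM to 26.2 and 10.51 (log2 difference -2.05, SE 0.30, adjusted p 0.000504). Cdc6, a licensing factor whose promoter is shown above, fell from 129 and 167 CPM to 48.2 and 24 (log2 difference -2.04, SE 0.36, adjusted p 0.00193). Rfc3, a clamp loader subunit with the match TTTCGCGC, fell from 138 and 136 CPM to 75.6 and 55 (log2 difference -1.07, SE 0.16, adjusted p 0.000592). All 4 were called whichever 1 library was left out.

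Not every member was called, and a missing call does not show that a level stayed the same. Mcm2, of the replicative helicase ring, was at 334 and 408 CPM and then 342 and 176, with overlapping groups (log2 difference -0.52, SE 0.24, adjusted p 0.184). In male Tet1-KO libraries 22 of the 57 replication genes fell and 0 rose (median -0.55). In females 12 fell and 7 rose, and by the test of the difference 9 had a lower change in males and 3 a higher one. Replicate 2 of E14.5 was the lower of its pair in 49 of the 57, and without it 6 of the genes were called; without E12.5 replicate 1 there were 11, and without its replicate 2 there were 8.

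Mitosis genes changed less, with 8 of 48 lower and 2 higher (median -0.28), against 7.75% and 4.92% of all genes tested. In females 20 of the 48 fell and 4 rose (median -0.46). By the test of the difference 6 had a higher change in males and 4 a lower one. In the male Tet1-WT libraries Mki67, the proliferation antigen, was at 198 and 278 CPM and then 123 and 52.9 (log2 difference -1.44, SE 0.33, adjusted p 0.0103). Top2a, which untangles chromosomes before division, was at 1008 and 1261 CPM and then 796 and 473 (log2 difference -0.84, SE 0.20, adjusted p 0.0119). Kif23, a kinesin of cytokinesis, was at 123 and 131 CPM and then 88.1 and 68.7 (log2 difference -0.70, SE 0.18, adjusted p 0.0166). Cdc25c, the phosphatase that opens mitosis, was at 57.4 and 43.5 CPM and then 27.7 and 26.3 (log2 difference -0.90, SE 0.21, adjusted p 0.00974). Without replicate 2 of E14.5 none of the 4 was called (adjusted p 0.119, 0.16, 0.217 and 0.0934), nor was any of the 8 falls. Without E12.5 replicate 2, Mki67 (0.0898), Top2a (0.122) and Kif23 (0.108) were not called, and without E12.5 replicate 1 Kif23 (0.0877) and Cdc25c (0.175) were not. Left-out libraries moved the count of 8 to 2, 1, 15 and 0 for E12.5 replicates 1 and 2 and E14.5 replicates 1 and 2.

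G1 regulators fell more often than they rose, 10 of 34 against 1 (median -0.43). Ccnd2 (cyclin D2) fell from 248 and 147 CPM to 14.8 and 12.7 (log2 difference -3.85, SE 0.52, adjusted p 0.00025). Ccnd3 (cyclin D3) fell from 75.6 and 61 CPM to 25.8 and 21.6 (log2 difference -1.53, SE 0.25, adjusted p 0.00105). Ccne1 (cyclin E1), which drives entry into S phase, fell from 18.4 and 20.5 CPM to 8.08 and 4.36 (log2 difference -1.65, SE 0.35, adjusted p 0.00618), and was not called without E14.5 replicate 2 (0.0997). In females 15 of the 34 fell and 4 rose (median -0.88). By the test of the difference 5 had a higher change in males and 3 a lower one. In the male Tet1-KO libraries 7 of the 34 fell and 3 rose. Without E14.5 replicate 2 the 10 falls became 5.

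Of 3 inhibitors of cyclin-dependent kinases 1 fell and the others were not called. Cdkn1b (p27) was at 26.3 and 16.7 CPM and then 31.1 and 42.3 (log2 difference 0.77, SE 0.37, adjusted p 0.197). Cdkn2b (p15) was at 0.786 and 0.251 CPM and then 6.24 and 5.11 (log2 difference 3.43, SE 1.37, adjusted p 0.118), and was called higher by DESeq2 (0.0282), limma voom (0.016) and with the compared libraries alone (0.0461). Cdkn1c (p57), an imprinted gene, fell from 169 and 73.8 CPM to 16.8 and 23.4 (log2 difference -2.59, SE 0.38, adjusted p 0.000454). Ccnd1 (cyclin D1) was low throughout, at 7.26 and 3.2 CPM and then 3.68 and 4 (adjusted p 0.665). Tfdp2, a partner of E2F factors, was the 1 rise, from 29.7 and 26.3 CPM to 81.3 and 85.6 (log2 difference 1.58, SE 0.27, adjusted p 0.00162). At E12.5 Ccnd2 was at 61.1 and 28.8 CPM and Cdkn1c at 41.5 and 26.9 in the male Tet1-KO libraries, where the mesenchyme sum was lower too; Ccnd3, at 60.3 and 69.2, overlapped its Tet1-WT levels.

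**Figure D4:**
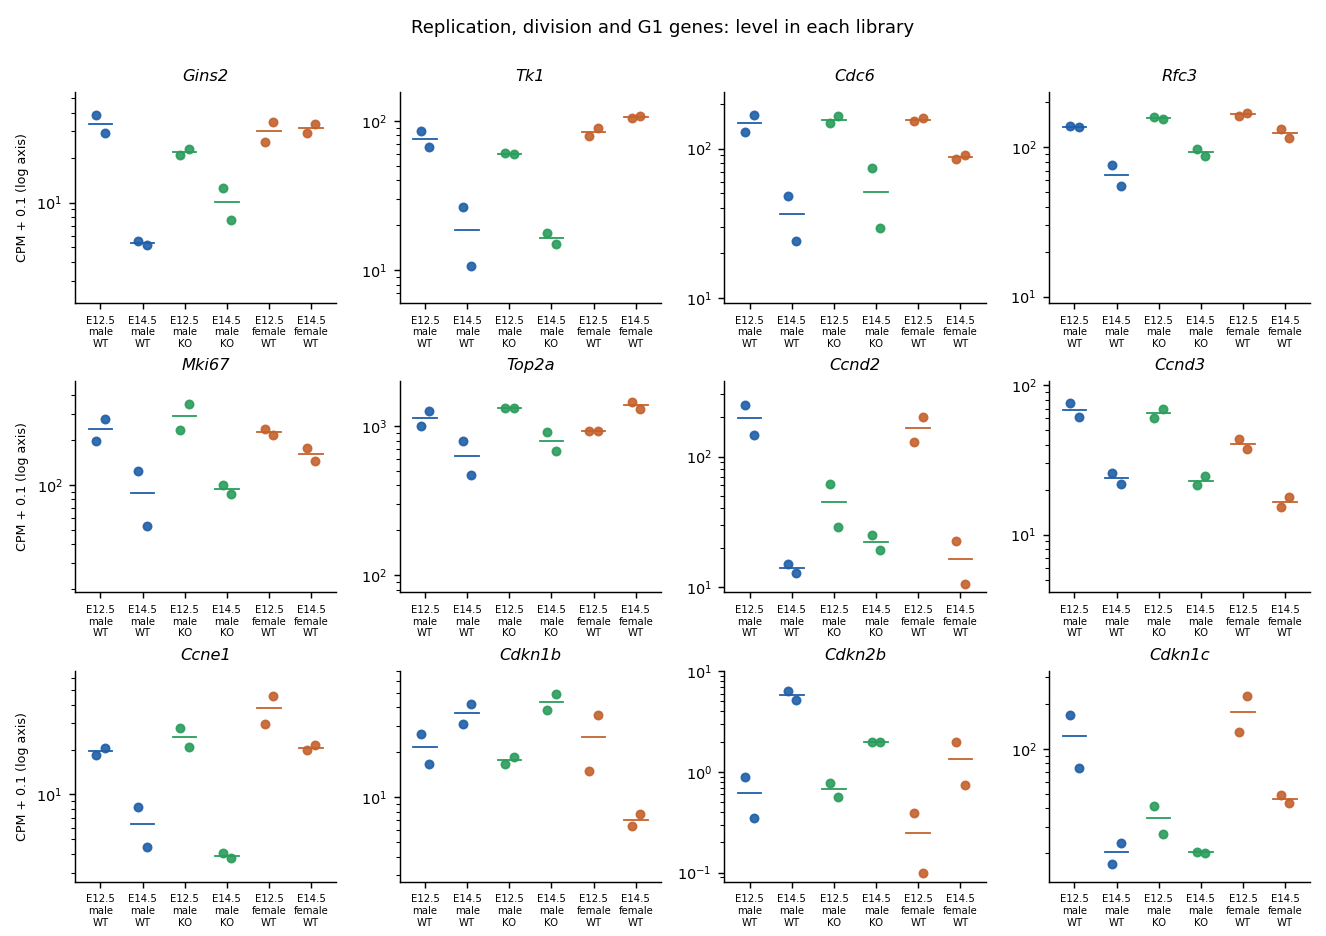
CPM plus 0.1 (log axis) of 12 genes of replication, division and G1 in each library of 6 groups, with points for the 2 libraries and a line for their mean. Gins2 lies at 5.47 and 5.07 CPM in the E14.5 male Tet1-WT libraries and at 29.1 and 33.7 in the E14.5 ovary, and Cdc6 lies at 48.2 and 24 CPM in the former and at 129 and 167 in the E12.5 male libraries.

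Of 27 genes of the DNA methylation machinery 2 were called higher and 6 lower (median -0.39), against 4.92% and 7.75% of all genes tested. Dnmt1, the maintenance methyltransferase, was at 460 and 615 CPM and then 316 and 240 (log2 difference -0.95, SE 0.27, adjusted p 0.0291). In male Tet1-KO libraries it was at 298 and 351 and then 553 and 474, a change that was not called (adjusted p 0.13). The difference between the genotypes in the change of Dnmt1 was not called either (adjusted p 0.0589). Dnmt3a, a de novo methyltransferase, was at 172 and 119 CPM and then 114 and 268 (adjusted p 0.546), Dnmt3b, the other, at 7.2 and 7.71 and then 8.2 and 6.07 (adjusted p 0.983), and Uhrf1, the guide of Dnmt1, at 137 and 114 and then 117 and 89.7 (adjusted p 0.576). The Dnmt3a libraries of E14.5 enclosed those of E12.5. Tet1 was not called (adjusted p 0.537).

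Among other members, Tdg, the glycosylase of oxidised methylcytosine, was lower, at 37.8 and 34.3 CPM and then 16.5 and 15.5 (log2 difference -1.17, SE 0.25, adjusted p 0.00674), as was Mbd3 of the NuRD complex, at 75.7 and 80.3 and then 52.5 and 30.3 (log2 difference -0.92, SE 0.23, adjusted p 0.0162). Zfp57, which guards imprints, fell from 52.2 and 27.1 CPM to 4.04 and 2.00 (log2 difference -3.73, SE 0.79, adjusted p 0.00628). Without E14.5 replicate 2, Dnmt1 (0.229), Tdg (0.0663), Mbd3 (0.217) and Zfp57 (0.0812) were not called. Without E12.5 replicate 1, Dnmt1 (0.0544), Tdg (0.0717) and Mbd3 (0.0882) were not, and without E12.5 replicate 2, Dnmt1 (0.211) and Mbd3 (0.0979) were not. The 6 falls became 1, 3, 5 and 1 without E12.5 replicates 1 and 2 and E14.5 replicates 1 and 2.

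Of 26 repressive chromatin genes 4 rose and 3 fell (median 0.14), against 4.92% and 7.75% of all genes tested. The paired H3K27 methyltransferases went in opposite directions. Ezh2, the enzyme of dividing cells, fell from 84.5 and 85.3 CPM to 49.5 and 27 (log2 difference -1.15, SE 0.23, adjusted p 0.00411), and Ezh1, that of resting cells, rose from 62.7 and 88.1 CPM to 152 and 239 (log2 difference 1.37, SE 0.30, adjusted p 0.00707). Hdac1, a histone deacetylase, fell from 400 and 457 CPM to 233 and 167 (log2 difference -1.10, SE 0.24, adjusted p 0.00766). Without E14.5 replicate 2 the adjusted p was 0.0558 for Ezh2, 0.0898 for Ezh1 and 0.103 for Hdac1. Ezh1 was also lost without E12.5 replicate 1 (0.0926) and Hdac1 without E12.5 replicate 2 (0.0556). The male Tet1-KO libraries had Ezh2 at 108 and 102 CPM and then 47.9 and 42.1, and Ezh1 at 48.5 and 78.5 and then 174 and 190. Without E12.5 replicate 1 or E14.5 replicate 2 none of the 4 rises was called.

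Of 75 cytosolic ribosomal protein genes 12 rose and 0 fell, with a median of 0.47. In 70 of the 75 both E14.5 libraries lay above both E12.5 libraries, as in 28.3% of all genes tested. Rps6 was at 983 and 954 CPM and then 1481 and 1506 (log2 difference 0.62, SE 0.15, adjusted p 0.0154). Rpl6 was at 1085 and 1059 CPM and then 1650 and 1657 (log2 difference 0.63, SE 0.16, adjusted p 0.0195). These genes have many processed copies that can take reads, so single values are uncertain. In male Tet1-KO libraries 0 of the 75 rose and 3 fell (median -0.35). The 12 calls became 0, 0, 1 and 0 without each library in turn, where Rps6 had adjusted p 0.0814, 0.0777, 0.0451 and 0.0822 and Rpl6 0.103, 0.0939, 0.059 and 0.0922. DESeq2 called 27 of the 75 higher and limma voom 40.

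Of 74 nuclear genes of oxidative phosphorylation 34 rose and 4 fell in females (median 0.50). By the test of the difference 4 had a higher change in males and 10 a lower one. In male Tet1-KO libraries 5 of the 74 rose and 10 fell (median -0.29). In male Tet1-WT libraries 5 rose and 0 fell (median 0.29), against 4.92% and 7.75% of all genes tested, and of 12 mitochondrial ones 1 rose. Ndufa7, of complex I, was at 278 and 259 CPM and then 430 and 458 (log2 difference 0.73, SE 0.16, adjusted p 0.00815), a call lost without E12.5 replicate 2 (0.0561) or E14.5 replicate 2 (0.0581). The 5 became 1, 1, 2 and 1 without each library in turn. Glycolysis genes went down where they were called, 6 of 23 lower and 0 higher (median -0.25). Ldha, lactate dehydrogenase A, fell from 237 and 135 CPM to 31.8 and 25 (log2 difference -2.71, SE 0.23, adjusted p 4.37e-06). Hk1, a hexokinase, fell from 82.8 and 119 CPM to 18.3 and 20.4 (log2 difference -2.38, SE 0.35, adjusted p 0.000479). Pgk1, phosphoglycerate kinase on the X chromosome, fell from 321 and 292 CPM to 184 and 105 (log2 difference -1.09, SE 0.20, adjusted p 0.00249). These 3 were called whichever library was left out, but Pgk1 was not with the compared libraries alone (0.0519), and the 6 became 3 without E12.5 replicate 1. Hk1 and Pgk1 were at similar levels at E12.5 in male Tet1-KO libraries (98.1 and 97.3, and 307 and 285 CPM), while Ldha was lower there (116 and 85.9).

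Imprinted genes, many of which drive growth in somatic tissue, fell in number: 18 of 38 were called lower and 1 higher. Their median was -1.79, or -1.37 with genes at 0 set to their bound. Igf2, a growth factor, fell from 206 and 114 CPM to 2.2 and 2.72 (log2 difference -6.01, SE 0.51, adjusted p 4.37e-06), and H19, its noncoding neighbour, from 203 and 100 to 7.55 and 10.8 (log2 difference -4.03, SE 0.35, adjusted p 4.37e-06). Grb10, a growth inhibitor, fell from 554 and 318 CPM to 3.98 and 6.47 (log2 difference -6.36, SE 0.61, adjusted p 1.11e-05). Peg3, a zinc finger factor, fell from 938 and 754 CPM to 214 and 156 (log2 difference -2.20, SE 0.24, adjusted p 4.09e-05). All 4 calls held without any 1 library, and the 18 became 12 without E12.5 replicate 1. At E12.5 the male Tet1-KO libraries had Igf2 at 50.8 and 22.3 CPM, Grb10 at 22.5 and 14.3 and Peg3 at 392 and 416, below both Tet1-WT libraries, and 8 of the 38 fell there. Their mesenchyme sum was 265 and 172 CPM against 1868 and 1233; the part of mesenchyme RNA in these falls was not tested.

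Immediate early genes of the stress and dissociation list fell in 6 of 18 (0 rose, median -1.79). Fos, an AP-1 subunit, fell from 287 and 120 CPM to 2.26 and 2.48 (log2 difference -6.42, SE 0.74, adjusted p 6.29e-05), and Egr1, a serum response factor target, from 54.9 and 32.6 to 0.594 and 1.56 (log2 difference -5.31, SE 0.86, adjusted p 0.00105). In E12.5 male Tet1-KO libraries Fos was at 30.4 and 18.3 CPM and Egr1 at 4.63 and 5.00. Dissociation and sorting times are not given in the sources used here. The 6 falls became 3 without E12.5 replicate 1, and 4 without either E14.5 library.

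Survival genes moved in both directions, 6 of 24 lower and 2 higher (median -0.26), against 7.75% and 4.92% of all genes tested. Bcl2l11 (BIM), a killer of the BCL2 family, fell from 34.7 and 19.2 CPM to 1.72 and 1.2 (log2 difference -4.21, SE 0.52, adjusted p 0.000108). Bad, another, fell from 45.6 and 46.8 CPM to 16.5 and 13.1 (log2 difference -1.64, SE 0.24, adjusted p 0.000407). Bcl2, which protects cells, was at 11.1 and 12.8 CPM and then at 0 in both, at least 80.2-fold lower (adjusted p 0.00385), whereas Bcl2l1 (BCL-X), the survival factor of germ cells, rose from 99.3 and 77.6 CPM to 148 and 201 (log2 difference 0.98, SE 0.24, adjusted p 0.0146). The Bcl2l1 call was lost without E12.5 replicate 2 (0.105) or E14.5 replicate 2 (0.147). The 6 falls became 3 without E12.5 replicate 1, and 3 without E14.5 replicate 2; they were 4 without E12.5 replicate 2 or E14.5 replicate 1.

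Receptors, adhesion molecules and survival factors fell in 7 of 19 and rose in 1 (median -1.24). Cxcl12, the chemokine that guides germ cells and is made by somatic cells, fell from 159 and 102 CPM to 6.36 and 5.31 (log2 difference -4.48, SE 0.43, adjusted p 1.09e-05). Kitl, the somatic ligand of Kit, fell from 14.52 and 21.5 CPM to 2.08 and 1.96 (log2 difference -3.15, SE 0.45, adjusted p 0.00042). Both are known from somatic cells, and the mesenchyme sum fell beside them. The 7 falls became 3 without E12.5 replicate 1 and 3 without E14.5 replicate 2. Of 13 tested genes of the oocyte programme 2 rose and 0 fell (median 0.93), against 4.92% and 7.75% of all genes tested. Without 3 of the 4 libraries, each in turn, none rose, and E14.5 replicate 1 was the exception.

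The test of the difference between the sexes, (E14.5 minus E12.5 in males) minus the same in females, called 1100 genes higher (6.26%) and 1028 lower (5.85%). With upper-quartile scaling these were 1469 and 801, so the share called higher went from 51.7% to 64.7%, and the median over all genes shifted to 0.16 on the log2 scale. Without E12.5 male replicate 1 the counts were 554 and 588, without E14.5 female replicate 1 they were 535 and 460, and without E12.5 female replicate 2 the lower count was 611. Of the 865 genes that rose in males, 323 (37.3%) also rose in females and 107 (12.4%) fell, against 11.3% and 14% of all genes tested. Of the 1362 that fell, 679 (49.9%) fell in females and 65 (4.77%) rose, against 14% and 11.3% of all genes tested. The shared genes were 16.3% of the female rises and 27.6% of the female falls. Of all genes tested, 4.92% rose and 7.75% fell in males.

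The test of the difference between genotypes in males called 12 genes with a higher change in Tet1-WT (0.0683%) and 129 with a lower one (0.734%), 0.803% of all genes tested. With upper-quartile scaling they were 23 and 85. The 12 became 1 and 7 without E12.5 Tet1-WT replicates 1 and 2, 20 without E14.5 Tet1-WT replicate 2, and 2 or 3 without 1 Tet1-KO library. The 129 became 18 and 83 without E12.5 Tet1-WT replicates 1 and 2, 68 without E14.5 Tet1-WT replicate 1, and between 23 and 63 without 1 Tet1-KO library. Among list members named above, Grb10 fell by 6.36 in Tet1-WT and was at 22.5 and 14.3 and then 15.0 and 16.5 CPM in Tet1-KO libraries, a difference of -6.15 (SE 0.76, adjusted p 0.00447). Of the 15 mesenchyme markers 4 had a lower change in Tet1-WT by the same test, and their E12.5 levels differed between the genotypes as given above.

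**Figure D5:**
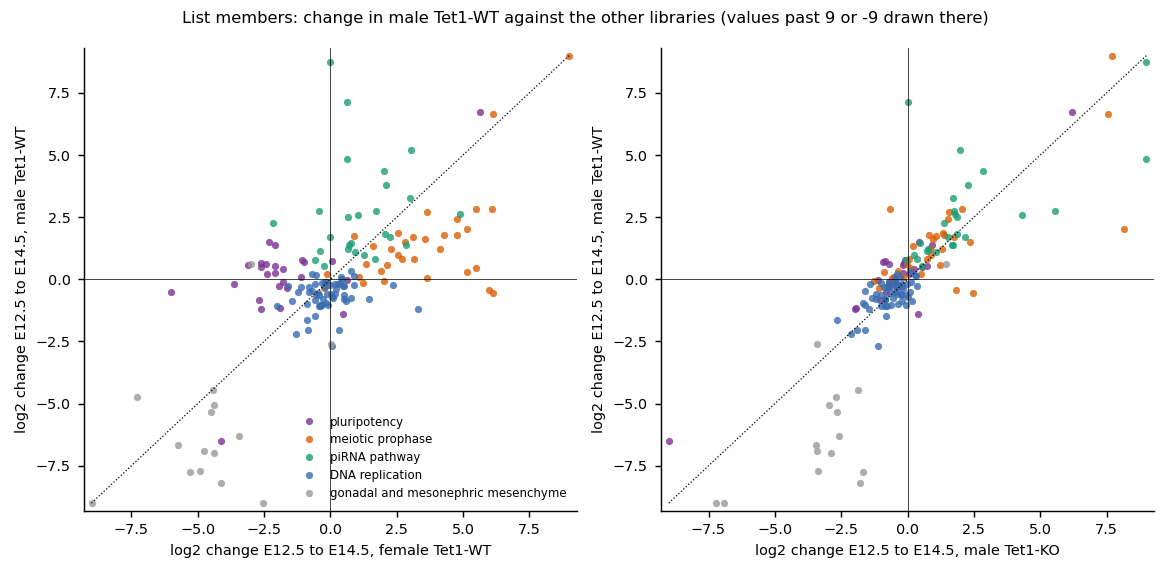
Log2 change from E12.5 to E14.5 of the tested members of 5 gene lists in male Tet1-WT libraries (vertical axis) against female Tet1-WT libraries (left) and male Tet1-KO libraries (right), which share no library with them; the dotted line marks equal change and values past 9 or -9 are drawn there. Meiotic prophase genes lie to the right of the line on the left panel, where 27 of 33 rose in females against 12 in males, and pluripotency genes lie to its left, where 21 of 26 fell in females against 1 in males.

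The E14.5 libraries differed from each other. Of the 865 called rises 723 (83.6%) were higher in replicate 2 than in replicate 1, against 52.1% of all genes tested. Of the 1362 called falls 680 (49.9%) were lower in replicate 2, against 41% of all genes tested, and 499 were higher. The calls were made on these same libraries. Replicate 2 stood lower in 40 of 48 mitosis genes and 49 of 57 replication genes, and higher in 14 of 18 stress genes, 22 of 38 imprinted genes and 10 of 16 BMP and WNT response genes. It was the more deeply sequenced, at 25899505 counts against 17251851. The labels give no litter, hour or somite count by which the pools could be ordered.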

How the data were processed

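RNA-seq was done on sorted germ cells, with RNA of 2 to 6 embryos pooled per library and 15 cycles of cDNA amplification, per the labels' protocols. The authors deposited raw counts per gene, made on mm9 with Trimmomatic, TopHat2 2.0.2, Bowtie 0.12.8 and HTSeq 0.5.3p9, per the submitters' processing notes. Whether counting used strand is not given in the sources used here, so overlapping and antisense genes cannot be told apart.

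The 20 libraries of the Tet1 cross were fitted together, with 1 coefficient for each of 10 groups. R 4.3.3 and edgeR 4.0.16 gave a robust quasi-likelihood F test with TMM scaling, filterByExpr (minimum count 10, minimum total 15) and a prior count of 0.125. Of 37991 genes 17567 were tested, with 10 residual degrees of freedom and a common biological coefficient of variation of 0.46. Calls were made at an adjusted p under 0.05, by the method of Benjamini and Hochberg over all genes tested. CPM are counts over the TMM-scaled library size, and the standard error is the log2 difference over the square root of F. Depth sets how low a level can be seen, and for a group at 0 a floor of 3 counts per library gave the bound.

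The same fit gave the male minus female and Tet1-WT minus Tet1-KO differences of the change. Alternatives were RLE and upper-quartile scaling, DESeq2 1.42.0, limma 3.58.1 (voom), no filter, fewer libraries, a mesenchyme covariate, glmTreat and each library left out. The code was tested on simulated data. Figures used matplotlib 3.10.9.

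The libraries compared and the 24 pathway and 10 marker lists (773 symbols, 9 without a match) were chosen with earlier results of these data known. Named genes were the 10 largest called changes in each direction at 5 CPM or more, up to 4 called members of each list with the smallest adjusted p, the 5 largest male minus female values in each direction, and a set of known regulators. The text gives part of the 136. Of the 22 samples, 2 from another cross were not used.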

Additional observations from a re-analysis of the deposited data

Results flagged for a closer look

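The values here are differences between log2 changes from E12.5 to E14.5, each picked out because the test of the difference itself (edgeR, with p adjusted over all genes) was past 0.05. In Tet1-WT, 40 of 94 genes checked had such a difference between males and females, against 12.1% of all genes tested. Some of the 94 were named for having the largest such differences, so the count is no measure of how common they are. Of these 26 were called without any 1 of the 8 libraries, 39 with RLE scaling and 38 with upper-quartile scaling. The calls of Dnmt3l, Taf7l, Sox2, Cd9, Spred1, Dnmt1, Dnmt3a, Tet1, Ezh2, Rpl6, Ldha, Grb10, Bcl2l11 and Bcl2 were each lost without at least 1 of the 8. Where a group was at 0 (Dnmt3l, Tdgf1, Hesx1, Rrad, Bcl2 and Sema3a) the value is a fitted one that depends on the prior count and is no bound.

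The change was higher in males than in females for pluripotency and early germ cell genes. It was 3.49 for Dppa3, 3.8 for Dppa4, 2.22 for Pou5f1, 1.67 for Sox2, 3.42 for Nanog, 4.16 for Nanos3, 2.42 for Ifitm1 and 1.06 for Cd9. The change was also higher for some male regulators and signalling genes. It was 17 for Dnmt3l, 4.25 for Sdc4, 3.19 for Tdrd5, 5.48 for Tdgf1, 2.15 for Tgif1, 11.4 for Hesx1 and 13.8 for Rrad. The same held for the inhibitor Cdkn1b at 2.63, for Dnmt3a at 2.22, for Tet1 at 1.88 and for Rpl6 at 0.748. For Cdkn1b, Dnmt3a and Tet1 the change in males alone was not called. The difference between the sexes was not called for Nanos2 (adjusted p 0.983), Piwil4 (0.0845) or Bnc2 (0.353).

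The change was lower in males for meiotic and germline genes, at -2.49 for Sycp3, -2.47 for Taf7l and -2.25 for Tex15, all 3 of which rose in males. It was lower for BMP response genes, at -4.63 for Id1, -3.45 for Id2, -3.06 for Id3 and -3.68 for Gata2, and for Spred1 at -1.74. Of the replication genes checked it was lower for Gins2 at -2.75 and Tk1 at -2.38, and of the division genes for Top2a at -1.4 and Kif23 at -1.64. The mitosis list as a whole had no such direction. Of its 48 genes 6 had a higher change in males and 4 a lower one, with a median of 0.28. Dnmt1 was at -1.37 and Ezh2 at -1.06. The others were Ldha at -1.24, Igf2 at -4.58, Grb10 at -2.43, Fos at -4.77, Bcl2l11 at -2.7, Bcl2 at -8.1 and Sema3a at -7.84.

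Between genotypes in males, 5 of the genes had a lower change in Tet1-WT than in Tet1-KO libraries, at -2.53 for Id2, -1.88 for Ldha, -6.15 for Grb10, -3.01 for Bcl2l11 and -9.39 for Sema3a. Each of the 5 was lower in both E12.5 Tet1-KO libraries than in both Tet1-WT ones, except Bcl2l11, where they overlapped, and the mesenchyme sum was 265 and 172 CPM against 1868 and 1233. The part of that RNA in these values was not tested. Leaving out 1 library ended the calls of Id2, Ldha and Bcl2l11 in some cases, and those of Grb10 and Sema3a in none.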

How the results depend on the processing

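With 2 pools a stage, counts of calls moved more than directions did. Of the 94 genes checked, RLE scaling changed no call, upper-quartile scaling lost 2 (Tfap2c, Kit), DESeq2 3 (Nanos2, Dnmt3l, Pkd2l1), the 10 Tet1-WT libraries alone 4 (Foxh1, Mbd3, Tfap2c, Ddx4) and the compared libraries alone 12 (Spred1, Spry4, Mbd3, Ezh2, Cdc25c, Mki67, Top2a, Kif23, Pgk1, Tfap2c, Kit, Ccne1). Lefty2 was called lower by voom (0.0463) and, like Lefty1 higher (0.0354), with no filter (0.023). Against 865 higher and 1362 lower, DESeq2 called 1365 and 2050 (847 and 1357 shared), voom 1627 higher, and glmTreat against a 1.5-fold change 241 and 756. Without the 4 E10.5 libraries 1382 were higher, and leaving out 1 library gave 191 to 782 higher and 574 to 1089 lower. For the male minus female difference (1100 and 1028), DESeq2 called 1688 lower, and leaving out 1 library gave 535 to 1096 and 460 to 855. For Tet1-WT minus Tet1-KO (12 and 129), upper-quartile scaling gave 23 and 85 (21.3% higher against 8.5%), DESeq2 263 and 722, voom 296 and 482, no filter 227 and 812, the compared libraries alone 300 and 533, no E10.5 libraries 96 and 216, and leaving out 1 library 1 to 20 and 18 to 116. In Tet1-KO males (966 and 855), DESeq2 gave 1702 and 1405, voom 2938 and 2422, no filter 1456 higher, and leaving out 1 library 186 to 952 and 139 to 992. In females (1987 and 2459) leaving out 1 library gave 1111 to 2002 and 1337 to 2520. With the mesenchyme level as a covariate 884 genes were called higher and 891 lower for the male minus female difference. In the same model 0 were called in Tet1-WT males, in females and between genotypes, and 4 higher and 2 lower in Tet1-KO males. No stage call in Tet1-WT males held among the 94 genes, and 21 called ones had a log2 value of the other sign, as had Nodal, Lefty1, Pou5f1, Stra8, Rec8, Dnmt3b, Uhrf1 and Tet1 of those not called. The 21 were Smad3 1.80, Nanos2 -12.77, Bnc2 -1.80, Tex15 -1.75, Sycp3 -0.60, Cd9 -0.33, Ifitm1 -0.29, Zfp57 5.6, Ezh1 -0.53, Hdac1 0.26, Ccnd2 3.04, Cdkn1c 0.052, Rps6 -0.79, Rpl6 -0.21, Bcl2l11 0.00058, Peg3 0.45, Cxcl12 0.65, Tfap2c 0.19, Mael -4.66, Ccne1 0.57 and Dnmt1 0.43. The cause was not tested. Replicate numbers were not found to pair the samples (correlation -0.046 across genes, 2 pairs). The planned replicate block over 20 libraries could not be fitted, since the Tet1-KO columns carry no number. A replicate block in the 10 Tet1-WT libraries, chosen after seeing the data like the fits without E10.5, female or Tet1-KO libraries, gave 809 and 1234, lost the calls of Foxh1, Mbd3, Cdc25c, Top2a, Rpl6, Tfap2c, Kit and Ddx4, and called Rec8 higher (0.0166). Depth limits low genes: 3 counts are 0.185 CPM at E12.5 and 0.149 at E14.5.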

Other observations

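Ednra and Il33 were also among the largest falls. Ednra, an endothelin receptor gene, was at 67.1 and 43.7 CPM at E12.5 and at 0 in both E14.5 libraries, at least 372-fold lower (adjusted p 0.000107, edgeR's quasi-likelihood test). Il33, a cytokine gene, went from 27.6 and 17.7 CPM to 0, at least 152-fold lower (adjusted p 0.000249). Both were called whichever 1 of the 4 libraries was left out. In the E12.5 male Tet1-KO libraries Ednra was at 3.11 and 3.87 CPM and Il33 at 2.36 and 1.87, beside a mesenchyme sum of 265 and 172 CPM against 1868 and 1233 in Tet1-WT.

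Icosl, a costimulatory ligand gene close to Dnmt3l on chromosome 10, was at 0 and 0.564 CPM at E12.5 and at 3.51 and 9.23 at E14.5 (adjusted p 0.171, edgeR).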
